A study of Mus musculus with 16 samples.

Results

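The transcription factors that set up and maintain skeletal muscle were followed in mouse quadriceps through 8 genes: Myod1, Myog, Myf5, Myf6, Mef2a, Mef2c, Mef2d and Pax7. These are 8 of 16593 genes that the platform annotation names, and all 13 of their probes were taken, of 25697 on the array. A probe was tested where its detection p, which sets its signal against negative control probes, was under 0.05 on at least 4 of the 16 arrays. By that rule 11 of the 13 probes, of 6 of the 8 genes, were tested among 12364 probes in all, and the probes of Myf5 and Pax7 were not.

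The study profiled total RNA from quadriceps of adult mice on the FVB/n background, in 4 groups of 4 Illumina bead arrays. The groups were HSALR transgenic mice given antisense oligo (ASO) 445236, HSALR transgenic mice given ASO 190401, HSALR transgenic mice given saline, and wild-type (WT) mice given saline, all injected under the skin over 4 weeks. HSALR mice carry a human skeletal actin gene with a long CUG repeat, transcribed in skeletal muscle from its own promoter, and are used as a model of the muscle disease myotonic dystrophy. The labels name each oligo by its number alone, and do not state how many animals stand behind the 4 arrays of a group. The p-values therefore rest on array-to-array spread, part of which may be technical.

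The 4 myogenic basic helix-loop-helix (bHLH) factors Myod1, Myf5, Myog and Myf6 bind the E-box, a short DNA element, as partners of the widely expressed E proteins. Myf5 and Myod1 commit cells to the muscle lineage, Myog drives the fusion of myoblasts into fibres, and Myf6, also called MRF4, is the member most expressed in adult fibres. The MEF2 proteins bind an AT-rich element beside many of the same genes and act with the bHLH factors, while Pax7 marks satellite cells, the stem cells under the sheath of each fibre. Loss of the nerve supply or of activity is known to raise Myog and Myod1 together with genes of the neuromuscular synapse.

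The promoters of the 2 genes whose regulation by bHLH and MEF2 factors is best known, Myog and Mef2c, are printed from RefSeq (build GRCm38.p6, 250 bases before to 50 after the start site, plus strand), with each E-box (CANNTG) in capitals. Mef2c has 3 listed start sites, which are shown together because its 3 probes did not move alike.
Myog promoter, chr1:134289754-134290053: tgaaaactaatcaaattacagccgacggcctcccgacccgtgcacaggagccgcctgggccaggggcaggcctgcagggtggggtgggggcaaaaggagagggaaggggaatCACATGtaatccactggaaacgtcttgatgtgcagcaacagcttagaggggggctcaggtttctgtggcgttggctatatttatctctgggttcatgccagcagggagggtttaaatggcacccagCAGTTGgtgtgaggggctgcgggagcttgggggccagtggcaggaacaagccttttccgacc
Mef2c promoter, chr13:83503784-83504083: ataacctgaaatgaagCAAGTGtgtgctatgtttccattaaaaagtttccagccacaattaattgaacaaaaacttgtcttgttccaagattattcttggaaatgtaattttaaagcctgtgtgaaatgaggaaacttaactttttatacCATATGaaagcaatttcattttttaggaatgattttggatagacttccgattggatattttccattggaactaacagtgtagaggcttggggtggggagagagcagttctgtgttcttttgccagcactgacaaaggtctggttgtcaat
Mef2c promoter, chr13:83523406-83523705: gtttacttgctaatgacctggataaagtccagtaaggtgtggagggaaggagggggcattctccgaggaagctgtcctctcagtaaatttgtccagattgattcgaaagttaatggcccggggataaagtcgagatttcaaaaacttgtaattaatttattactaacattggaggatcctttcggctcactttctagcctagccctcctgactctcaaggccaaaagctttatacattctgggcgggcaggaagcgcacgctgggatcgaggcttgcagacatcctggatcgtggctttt
Mef2c promoter, chr13:83573357-83573656: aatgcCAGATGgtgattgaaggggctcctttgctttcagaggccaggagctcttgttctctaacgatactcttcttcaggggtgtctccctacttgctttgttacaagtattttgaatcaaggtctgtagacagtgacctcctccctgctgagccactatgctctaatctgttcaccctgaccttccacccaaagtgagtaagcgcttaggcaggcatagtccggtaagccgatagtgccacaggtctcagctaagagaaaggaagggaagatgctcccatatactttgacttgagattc
The Myog window holds CACATG at -138 to -133 and CAGTTG at -12 to -7, counted from the start site. The Mef2c windows hold CAAGTG at -234 to -229 and CATATG at -100 to -95 in the first, none in the second and CAGATG at -245 to -240 in the third. Of 32851 mouse promoters of the same length, searched on both strands, 72.3% hold an E-box and 39.6% hold 2 or more, so these matches are a description only. The consensus MEF2 element (named here without its letters, and searched on both strands) is in 3.19% of promoters and, among 8 promoters of 6 members with an entry, was found in that of Mef2a, as CTAAAAATAG at -2 to 8. Only exact matches were counted. The Myog window holds ctatatttat, which departs from the consensus in its last base alone, so a window without a match can still hold a MEF2 site. Myf6 and Myod1 had no entry.

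Each array detected 10835 to 11700 probes. Within groups the pairwise correlation was 0.9769 to 0.9912, lowest for a pair that included WT saline replicate 1. Precision is limited by having 4 arrays a group. One chip held ASO 445236 together with HSALR saline, and the other held ASO 190401 together with WT saline. ASO 445236 against HSALR saline and ASO 190401 against WT saline were therefore made within a chip, and in every other comparison chip and group cannot be told apart. The tissue label was borne out by 10 of 10 skeletal muscle markers above background. The mouse Acta1 probe, skeletal actin, averaged 14.91 ± 0.04 under ASO 445236, 14.77 ± 0.05 under ASO 190401, 14.86 ± 0.11 in HSALR saline and 14.93 ± 0.06 in WT saline (log2 level, SD, n = 4 each), and whether it also binds RNA of the human transgene was not tested. Below, a level is the log2 of the background-corrected, quantile-normalized intensity with an offset of 16 added, which understates the change of dim probes. A call means an adjusted p below 0.05 from limma, with adjustment over all 12364 probes, and SE is the standard error of a log2 difference.

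Myf5 and Pax7, the determination and stem cell factors of the set, were not above background on any of the 16 arrays. The detection p of the Myf5 probe ran from 0.27318 to 0.75564 under ASO 445236, from 0.21554 to 0.74311 under ASO 190401, from 0.15789 to 0.68296 in HSALR saline and from 0.32832 to 0.74185 in WT saline. That of the Pax7 probe ran from 0.20175 to 0.80952, from 0.43108 to 0.82832, from 0.28446 to 0.95489 and from 0.32206 to 0.68672 in the same groups. Neither gene therefore has a level here, only the statement that it was not detectable with these probes in whole quadriceps, and in bulk tissue fewer cells of a type and less RNA per cell cannot be told apart. Pax3, the other paired-box factor of muscle progenitors, was likewise above background on 0 of 16 arrays, with detection p from 0.11654 to 0.94737.

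Of 21 other satellite cell genes on the array 16 were tested and 4, namely Pax3, Met, Spry1 and Fgfr4, were below background on every array. Many of the 16, such as Des, Cav1 and Itgb1, are also made by fibres or vessels, so the summed level of the list does not count satellite cells. That sum, on the linear normalized scale, ranged from 20543.7 to 23514.5 under ASO 445236, from 19439.2 to 21471.4 under ASO 190401, from 23024.8 to 24571.8 in HSALR saline and from 20465.2 to 23124.6 in WT saline. Most of it was Des in every group, at a mean log2 level of 14.09 in HSALR saline and 13.84 in WT saline.

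**Figure D1:**
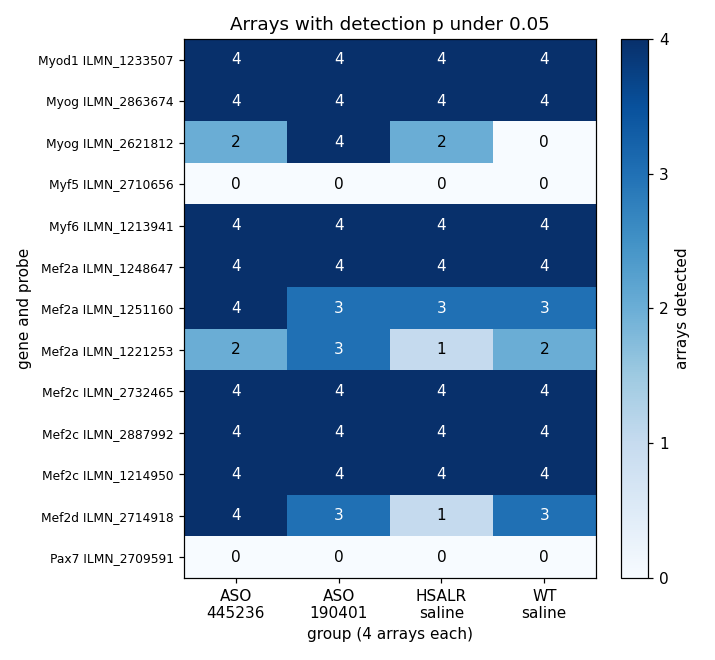
Number of the 4 arrays of each group (columns) on which each of the 13 probes (rows) had a detection p under 0.05. The Myf5 and Pax7 probes are at 0 in every group, Myod1, Myf6, Mef2c and the brighter probes of Myog and Mef2a are at 4, and the second Myog probe is at 2, 4, 2 and 0 arrays.

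In HSALR saline against WT saline, 3 of the 11 probes were called higher and 0 lower, where 13.1% of all tested probes were called higher and 12.7% lower. The 3 were Myf6 and 2 of the 3 Mef2c probes, and these were also the 3 of 11 whose groups did not overlap, as was the case for 25.4% of all probes, a share close to that of the set. ASO 445236 against HSALR saline had 0 called higher and 2 lower, against 6.09% and 6.01% of all probes. ASO 190401 against HSALR saline also had 0 higher and 2 lower, against 7.13% and 6.75% of all probes. In both it was the same 2 Mef2c probes that fell, and they were the 2 of 11 whose groups did not overlap, against 18.6% of all probes for ASO 445236 and 21.1% for ASO 190401. The 2 comparisons share the saline arrays.

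ASO 445236 against WT saline had 1 probe called higher, Myf6, and 0 lower, against 5.27% and 4.45% of all probes. ASO 190401 against WT saline had 1 called higher, a Mef2c probe, and 0 lower, against 4.32% and 4.81%, with non-overlapping groups at 2 of 11 probes, Myf6 and the second Myog probe, against 13.2% of all probes. ASO 445236 against ASO 190401 had 0 called of 11 in either direction, against 1.61% higher and 0.922% lower over all probes. There limma gave 0 probes at an unadjusted p under 0.05 and a lowest adjusted p of 0.461. The median log2 difference over the 11 probes was 0.04 for HSALR saline against WT saline, 0.13 and 0.09 for ASO 445236 and ASO 190401 against HSALR saline, and 0.16 and 0.18 for the oligos in that order against WT saline, beside medians of all probes between -0.02 and 0.02.

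Myf6, the bHLH factor of mature fibres, was higher in HSALR saline than in WT saline, and remained called against WT under ASO 445236 but not under ASO 190401. Its levels were 11.75, 12.33, 12.25 and 12.32 under ASO 445236, 12.12, 12.06, 11.88 and 12.30 under ASO 190401, 12.34, 12.37, 12.20 and 12.40 in HSALR saline, and 11.84, 11.74, 11.57 and 11.75 in WT saline. All HSALR saline arrays lay above all WT saline arrays, and so did all ASO 190401 arrays, while ASO 445236 replicate 1 lay inside the WT range. HSALR saline exceeded WT saline 1.52-fold, a log2 difference of 0.60 (SE 0.11, adjusted p = 6.1e-04), which held in each of 22 alternatives, with adjusted p from 2.9e-05 to 0.0032. By group mean Myf6 was ordered HSALR saline at 12.33 ± 0.09, ASO 445236 at 12.17 ± 0.28, ASO 190401 at 12.09 ± 0.17 and WT saline at 11.73 ± 0.11 (SD, n = 4 each). The order did not hold in every alternative. ASO 445236 minus HSALR saline ran from -0.22 to 0.02 over them, and ASO 190401 minus HSALR saline from -0.31 to -0.02. In the non-normalized intensities both oligo means were above HSALR saline (4828.32 and 5058.23 against 4272.5).

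Neighbours in that order did not differ past the threshold. ASO 445236 differed from HSALR saline by -0.16 (95% interval -0.40 to 0.07, adjusted p = 0.404), and the oligos from each other by 0.08 (-0.16 to 0.31, adjusted p = 0.788). ASO 190401 differed from HSALR saline by -0.24 (-0.47 to -0.0031, adjusted p = 0.174). ASO 190401 against WT saline, within a chip, gave 0.36 (SE 0.11), at an adjusted p of 0.0501 that passed the threshold in 12 of 23 alternatives and ranged from 3.9e-04 to 0.155. It passed, for example, without WT saline replicate 1 (0.40, adjusted p = 0.0419) or without ASO 190401 replicate 3 (0.43, adjusted p = 0.0286).

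ASO 445236 against WT saline gave 0.44 for Myf6 (SE 0.11, adjusted p = 0.019; 2.1e-04 to 0.0621 over 22 alternatives). Omitting ASO 445236 replicate 2 ended the call (0.38, adjusted p = 0.0588), as did omitting its replicate 3 (0.41, 0.0615) or replicate 4 (0.39, 0.0604), omitting WT saline replicate 3 (0.39, 0.0559), and fitting these 2 groups alone (0.44, 0.0621).

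**Figure D2:**
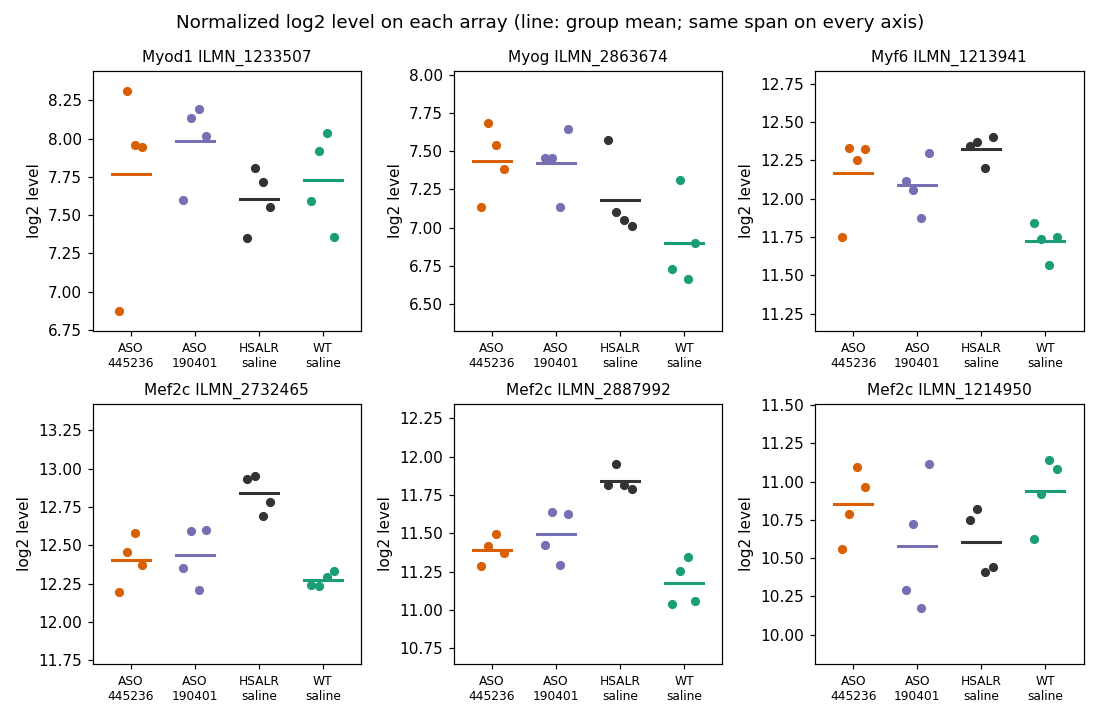
Normalized log2 level (vertical axis, the same span in each panel) on each array, by group from ASO 445236 to WT saline, for 6 of the tested probes; points are arrays and lines are group means. HSALR saline stands above WT saline for Myf6 and the upper 2 Mef2c probes, and Mef2c ILMN_1214950 shows no such step.

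Mef2c, the MEF2 factor that acts with the bHLH proteins in muscle differentiation and in keeping the sarcomere, was the member that differed most clearly, but through 2 of its 3 probes. Probe ILMN_2887992 measured 11.29, 11.42, 11.49 and 11.37 under ASO 445236, 11.42, 11.64, 11.29 and 11.63 under ASO 190401, 11.81, 11.95, 11.81 and 11.79 in HSALR saline, and 11.04, 11.26, 11.35 and 11.06 in WT saline. Probe ILMN_2732465 measured 12.20, 12.45, 12.58 and 12.37 under ASO 445236, 12.35, 12.59, 12.21 and 12.60 under ASO 190401, 12.93, 12.95, 12.69 and 12.78 in HSALR saline, and 12.24, 12.23, 12.29 and 12.33 in WT saline. On both, the 4 HSALR saline arrays lay above the 12 others.

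HSALR saline exceeded WT saline by 0.67 on ILMN_2887992 (1.59-fold, SE 0.09, adjusted p = 1.8e-05) and by 0.56 on ILMN_2732465 (1.48-fold, SE 0.09, adjusted p = 1.9e-04). Both calls held in each alternative run, with adjusted p of at most 2.2e-04 and 0.0014. Within 1 chip, ASO 445236 fell below HSALR saline by 0.45 (SE 0.09, adjusted p = 0.0019) and by 0.44 (SE 0.09, adjusted p = 0.0039) on the same probes. ASO 190401 fell below HSALR saline by 0.35 (SE 0.09, adjusted p = 0.012) and by 0.40 (SE 0.09, adjusted p = 0.007), with the groups on different chips.

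These 4 calls under the oligos were lost in 1 alternative each, scaling arrays by their median in place of quantile normalization. Median scaling moved the median of all probes to 0.16 for ASO 445236 and 0.17 for ASO 190401 against HSALR saline. It gave -0.26 (adjusted p = 0.0862) and -0.27 (adjusted p = 0.0651) for ASO 445236 on ILMN_2887992 and ILMN_2732465, and -0.13 (adjusted p = 0.409) and -0.20 (adjusted p = 0.151) for ASO 190401. Over the other alternatives the 4 calls held, and the lowest adjusted p was 4.5e-04 and 0.0012 for ASO 445236, and 0.0079 and 0.0049 for ASO 190401. Before normalization the HSALR saline arrays were the dimmest, with upper quartiles of intensity from 102.8 to 120.1, against 128.75 or more elsewhere. On that scale the ASO 190401 means were above those of HSALR saline (3397.4 against 3064.58 on ILMN_2887992, 6486.02 against 6200.55 on ILMN_2732465). Those of ASO 445236 were below (2824.15 and 5661). The fall under ASO 190401 therefore appeared only after scaling between arrays.

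Against WT saline the 2 probes stayed between the saline groups under either oligo. ASO 445236 minus WT saline was 0.22 on ILMN_2887992 (95% interval 0.03 to 0.40, adjusted p = 0.127) and 0.13 on ILMN_2732465 (-0.07 to 0.32, adjusted p = 0.432). ASO 190401 minus WT saline was 0.32 (SE 0.09, adjusted p = 0.0273) and 0.16 (-0.03 to 0.36, adjusted p = 0.314). The 1 call among these was lost in 8 of 22 alternatives, with adjusted p from 6.7e-04 to 0.0984. Single arrays that ended it were WT saline replicate 1 (0.27, adjusted p = 0.0702 without it), WT saline replicate 4 (0.28, 0.076), ASO 190401 replicate 2 (0.27, 0.0984) and ASO 190401 replicate 4 (0.27, 0.0909). It was also not called on its chip alone (0.32, adjusted p = 0.097).

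The third Mef2c probe, ILMN_1214950, was called in no comparison. It measured 10.56, 10.79, 11.10 and 10.96 under ASO 445236, 10.29, 10.73, 10.18 and 11.12 under ASO 190401, 10.75, 10.82, 10.41 and 10.44 in HSALR saline, and 10.63, 10.92, 11.14 and 11.08 in WT saline, with overlapping groups throughout. HSALR saline minus WT saline was -0.33 (95% interval -0.70 to 0.03, adjusted p = 0.166) and ASO 445236 minus HSALR saline was 0.25 (-0.12 to 0.61, adjusted p = 0.409), each opposite in sign to the other probes. ASO 190401 minus WT saline was -0.36 (-0.72 to -0.0027, adjusted p = 0.212), and -0.54 (adjusted p = 0.0425) without ASO 190401 replicate 4.

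The disagreement was measured within each array as the log2 ratio of the probes, a comparison added after it had been seen. ILMN_2887992 over ILMN_1214950 averaged 0.54 ± 0.16 under ASO 445236, 0.92 ± 0.29 under ASO 190401, 1.24 ± 0.17 in HSALR saline and 0.23 ± 0.19 in WT saline (SD, n = 4 each). HSALR saline minus WT saline was 1.0 for this ratio and 0.90 for that of ILMN_2732465, and ASO 445236 minus HSALR saline was -0.69 and -0.68. In each of these 4 cases the groups did not overlap, at the smallest two-sided p that an exact permutation test of 4 against 4 arrays allows, 0.0286, and an adjusted p of 0.0857 over the 18 ratios compared. The same p, without overlap, was reached by ASO 190401 minus HSALR saline on ILMN_2732465 (-0.37) and ASO 190401 minus WT saline on ILMN_2887992 (0.68). It was not reached by ASO 190401 minus HSALR saline on ILMN_2887992 (-0.32, exact permutation p = 0.114). Nor was it by ASO 190401 minus WT saline on ILMN_2732465 (0.53, exact permutation p = 0.0571). The 2 brighter probes kept nearly the same ratio to each other, with HSALR saline minus WT saline at -0.10 (exact permutation p = 0.314). The files give no probe positions, so the transcripts that each probe reads were not analysed here.

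**Figure D3:**
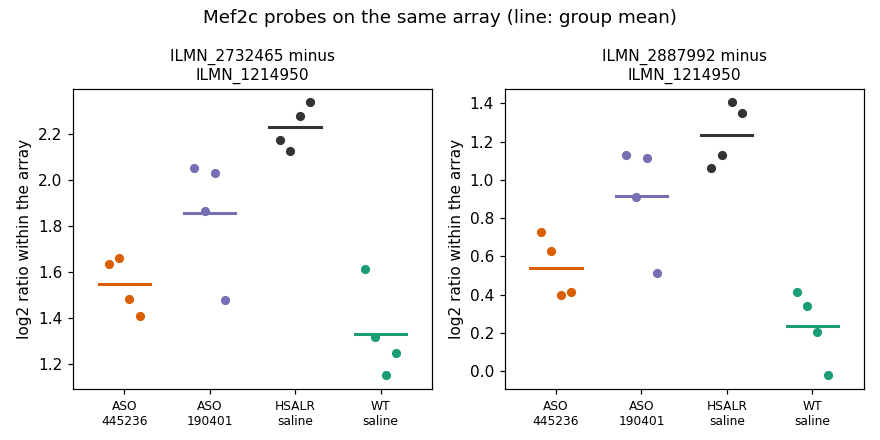
Log2 ratio (vertical axis) of 2 Mef2c probes to the third, ILMN_1214950, on each array by group; points are arrays and lines are group means. Both ratios are highest on average in HSALR saline and lowest on average in WT saline; the HSALR saline arrays stand above all others for ILMN_2732465, while ASO 190401 overlaps them for ILMN_2887992, with ASO 445236 nearer to WT saline than ASO 190401.

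Myog, the differentiation factor that also responds to denervation, had no called probe. Its brighter probe ILMN_2863674 measured 7.14, 7.68, 7.54 and 7.38 under ASO 445236, 7.46, 7.46, 7.14 and 7.64 under ASO 190401, 7.57, 7.10, 7.05 and 7.01 in HSALR saline, and 6.73, 7.31, 6.67 and 6.90 in WT saline. Both oligo groups and HSALR saline lay mostly above the WT arrays, WT saline replicate 2 being the array that overlapped them. ASO 445236 minus WT saline was 0.53 (SE 0.17, adjusted p = 0.0537) and ASO 190401 minus WT saline 0.52 (SE 0.17, adjusted p = 0.0618). The first was called in 8 of 22 alternatives, with adjusted p from 0.0114 to 0.144, and the second in 4 of 23, with adjusted p from 0.0095 to 0.163.

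Among single arrays, leaving out WT saline replicate 2 (0.67, adjusted p = 0.0216) or ASO 445236 replicate 1 (0.63, 0.0309) brought a call for ASO 445236. Leaving out WT saline replicate 2 (0.66, 0.0235) or ASO 190401 replicate 3 (0.62, 0.0386) did so for ASO 190401. HSALR saline minus WT saline was 0.28 (95% interval -0.08 to 0.64, adjusted p = 0.247). Within a chip, ASO 445236 minus HSALR saline was 0.25 (-0.10 to 0.61, adjusted p = 0.386). ASO 190401 minus HSALR saline was 0.24 (-0.11 to 0.60, adjusted p = 0.384).

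The second Myog probe, ILMN_2621812, was near background, with detection on 2 of 4 arrays under ASO 445236, 4 of 4 under ASO 190401, 2 of 4 in HSALR saline and 0 of 4 in WT saline. It measured 5.57, 5.45, 5.56 and 5.71 under ASO 190401 and 5.16, 5.34, 4.89 and 5.21 in WT saline, where it was not well above background. Taking the WT arrays at the lowest detected signal, the ASO 190401 mean was 1.15-fold higher (measured means 5.57 and 5.15), a figure without sampling error. The fitted difference had an adjusted p of 0.209. The fold figure taken in the same way was not above 1 for ASO 445236 or HSALR saline.

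Myod1, a determination factor that adult muscle expresses mainly in fast fibres, was above background on all 16 arrays and did not differ past the threshold in any comparison. It measured 6.87, 8.31, 7.96 and 7.94 under ASO 445236, 7.60, 8.14, 8.19 and 8.02 under ASO 190401, 7.35, 7.81, 7.72 and 7.55 in HSALR saline, and 7.60, 7.92, 8.04 and 7.36 in WT saline. ASO 445236 held both the lowest and the highest of the 16 values. HSALR saline minus WT saline was -0.12 (95% interval -0.61 to 0.37, adjusted p = 0.746) and ASO 190401 minus HSALR saline, the largest of its differences, was 0.38 (-0.11 to 0.87, adjusted p = 0.316).

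Mef2a and Mef2d, the other MEF2 factors of muscle, lay close to background and had no call. The 3 Mef2a probes were detected on 16, 13 and 8 arrays, and their log2 differences from WT saline ran from -0.08 to -0.0094 in HSALR saline, with 95% intervals inside -0.62 to 0.54. Mef2d was detected on 11 arrays. In HSALR saline it measured 6.41, 5.03, 5.15 and 5.18, replicate 1 alone being above background, against 5.60, 5.46, 5.14 and 5.40 in WT saline, a difference of 0.04 (-0.48 to 0.57, adjusted p = 0.922). Without HSALR saline replicate 1, ASO 445236 minus HSALR saline for Mef2d was 0.67 (adjusted p = 0.0314), against 0.35 (adjusted p = 0.423) with it. Mef2b, the MEF2 gene outside the set, was detected on 1 array under ASO 445236, 2 under ASO 190401, 3 in HSALR saline and 3 in WT saline.

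**Figure D4:**
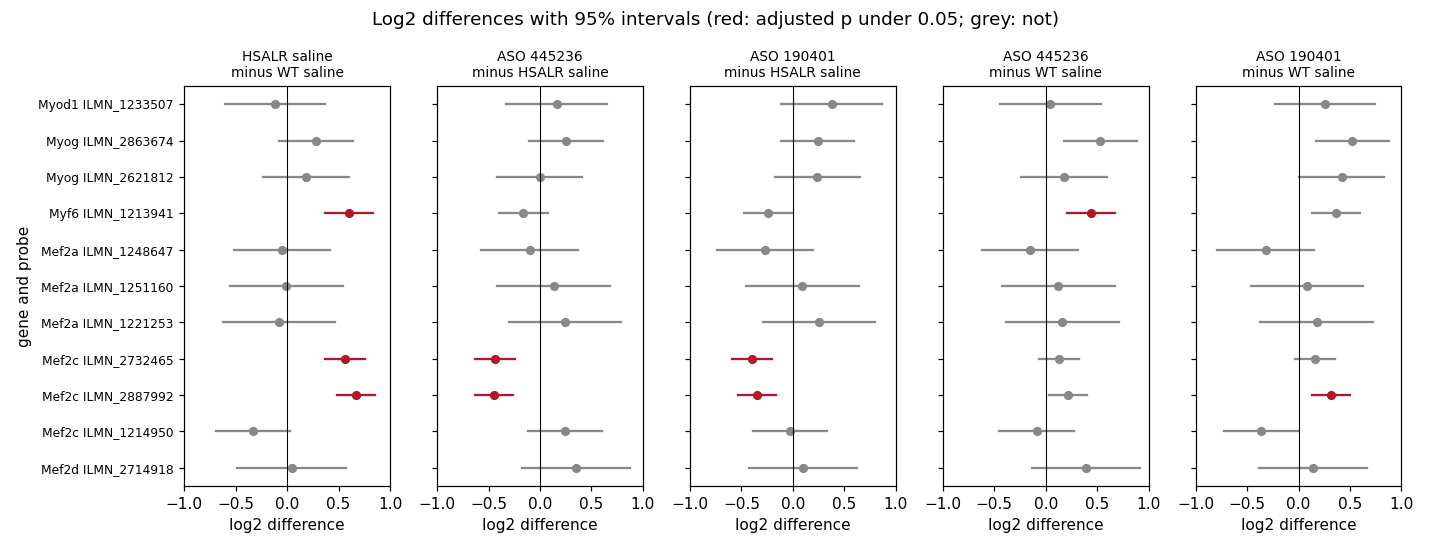
Log2 difference (horizontal axis) of each of the 11 tested probes in 5 comparisons, with 95% intervals; red marks an adjusted p under 0.05. The red points are Myf6 and 2 Mef2c probes for HSALR saline against WT saline, the same 2 Mef2c probes below 0 under either oligo against HSALR saline, and 1 probe for each oligo against WT saline.

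Genes known as targets of the bHLH factors, each by its brightest probe, were called higher in HSALR saline than in WT saline in 11 of 27 tested cases and lower in 2, against 13.9% and 12.8% of 8725 genes. This list was chosen with earlier results of these data known, so its counts are a description and no independent support. The list's median difference was 0.25, beside -0.02 over all genes, and leaving out each array gave 10 to 12 higher and 1 to 4 lower. The 11 included the acetylcholine receptor subunits Chrna1 (0.74), Chrnb1 (0.33), Chrng (1.51, with 1 of 4 WT arrays above background) and Chrne (0.80), the adhesion molecule Ncam1 (1.34) and the perinatal myosin Myh8 (1.70). The 2 lower were Actc1, cardiac actin, at -3.58 (SE 0.23, adjusted p = 1.1e-09) and fast troponin T Tnnt3 at -0.24. The count of lower genes was 4 without HSALR saline replicate 1 or 3, and 1 without replicate 2. A second Ncam1 probe gave -0.42, so Ncam1 rests on 1 of its probes.

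Within a chip, ASO 190401 against WT saline had 9 of these 27 genes higher and 1 lower, against 4.74% and 5.12% of all genes. When each array was left out 6 to 8 were higher. The list's median difference was 0.025 there, beside 0.026 over all genes. Chrng, the fetal subunit of the acetylcholine receptor, measured 6.82, 7.37, 6.61 and 7.50 under ASO 445236, 8.17, 7.15, 7.37 and 7.70 under ASO 190401, 6.49, 6.35, 6.70 and 7.18 in HSALR saline, and 5.84, 4.85, 4.94 and 5.07 in WT saline, where 1 of 4 arrays detected it. Every HSALR array stood above every WT array. The fitted difference from WT saline was 2.42 for ASO 190401 (SE 0.26, adjusted p = 6.9e-06) and 1.90 for ASO 445236 (SE 0.26, adjusted p = 1.6e-04), and its size depends on WT levels that lie mostly at background. ASO 445236 against WT saline had 6 of the 27 higher and 3 lower, against 5.81% and 4.65% of all genes. The list's median was 0.030 in that comparison, beside 0.0028 over all genes.

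Against HSALR saline, ASO 445236 had 1 of the 27 bHLH targets higher and 4 lower, against 6.56% and 6.44% of all genes, and ASO 190401 had 1 higher and 2 lower, against 7.56% and 7.31%. Under ASO 445236 the cell cycle inhibitor Cdkn1a fell by 1.21 (SE 0.15, adjusted p = 1.7e-05) and the receptor subunit Chrnb1 by 0.76 (SE 0.11, adjusted p = 1.0e-04), and Actc1 rose by 2.44 (SE 0.23, adjusted p = 7.9e-07). Under ASO 190401 the counts rest on single arrays, with 0 to 2 higher and 1 to 3 lower when each was left out. Chrng there was 0.92 above HSALR saline (SE 0.26, adjusted p = 0.0238), a call lost in 5 alternatives.

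Genes known to rise on denervation or inactivity, of which 5 of the 14 tested are also on the bHLH list, were higher in HSALR saline than in WT saline in 7 of 14 tested cases and lower in 0, against 13.9% and 12.8% of all genes, and the counts were the same when any 1 array was left out. Of the 7 called higher 5 are bHLH targets already counted above, so the 2 counts are not separate. The denervation list too was chosen with earlier results of these data known, so its counts are a description only. The list's median was 0.56. They included Sln, the calcium pump inhibitor sarcolipin, at 12.59, 13.32, 13.45 and 13.50 in HSALR saline and 6.80, 9.65, 9.79 and 9.32 in WT saline. ASO 190401 against WT saline had 8 higher and 1 lower with a median of 0.62, against 4.74% and 5.12% of all genes, and the 1 lower, Nnat, was lost when any array other than WT saline replicate 1 was left out. ASO 445236 against WT saline had 4 higher and 0 lower with a median of 0.42, against 5.81% and 4.65% of all genes. The 4 became 2 without ASO 445236 replicate 2, 3 or 4, or without WT saline replicate 2 or 3. Against HSALR saline, ASO 445236 had 0 higher and 3 lower with a median of -0.26, beside 6.56% and 6.44% of all genes. ASO 190401 had 3 higher and 1 lower with a median of -0.16, beside 7.56% and 7.31%. When each array was left out, ASO 445236 had 0 to 1 higher and 3 to 4 lower. ASO 190401 then had 1 to 3 higher and 0 to 3 lower. Musk, the kinase that organises the synapse and a member of both lists, was below background on the 4 WT arrays. With those arrays raised to the lowest detected signal, the HSALR saline mean was 1.82-fold higher (measured means 6.24 and 5.20). That figure carries no sampling error.

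**Figure D5:**
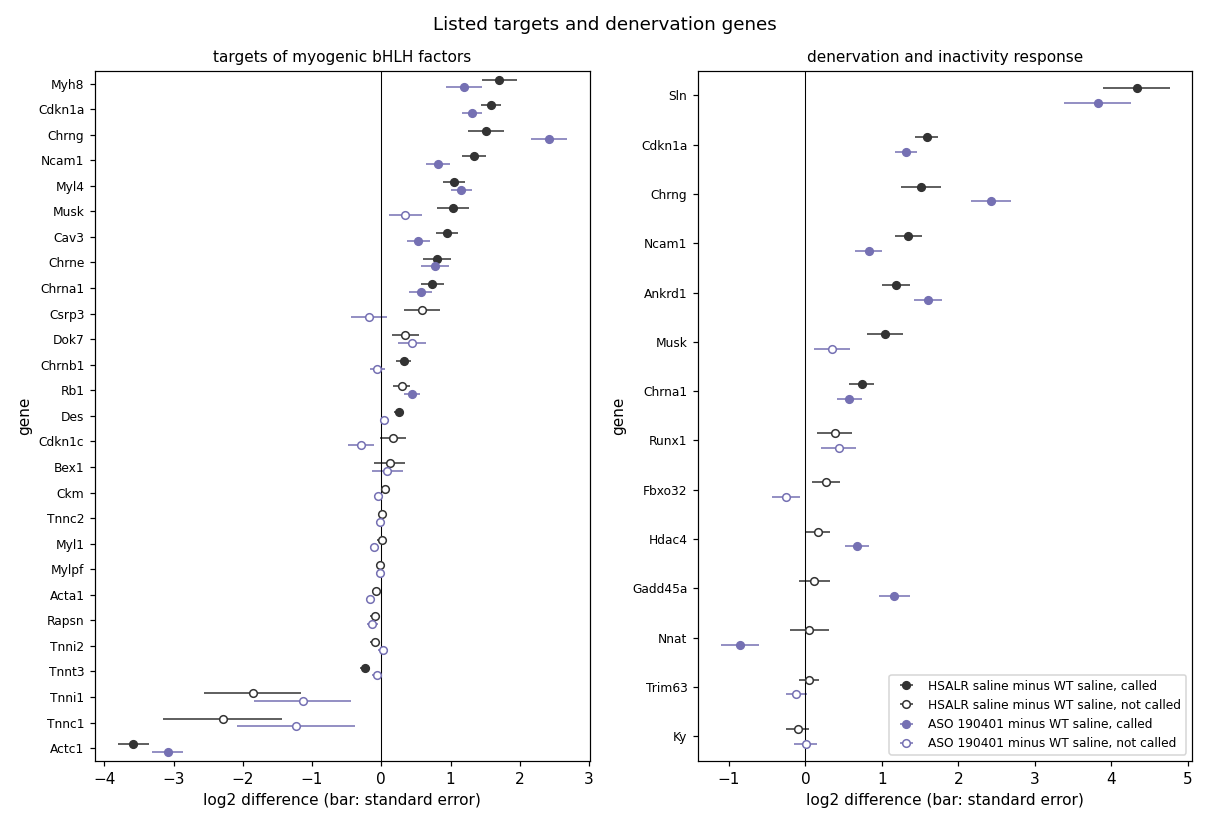
Log2 difference (horizontal axis, bars are standard errors) of each tested gene of the bHLH target list (left) and the denervation list (right) for HSALR saline and for ASO 190401, each against WT saline; filled points were called. Myh8, Cdkn1a, Chrng, Ncam1 and Myl4 are filled and above 0 for both, and Actc1 is filled and below 0 for both.

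Targets of MEF2 factors split, with 7 of 25 higher and 5 lower in HSALR saline against WT saline, beside 13.9% and 12.8% of all genes, and a median of 0.05. The counts became 4 and 3 without HSALR saline replicate 2 and 7 and 8 without WT saline replicate 1, and the lower count was also 3 without WT saline replicate 2, 3 or 4. Among those higher were Xirp1, an actin-binding repeat protein, at 1.20 (SE 0.21, adjusted p = 2.9e-04), the M-band protein Myom1 at 0.57 (SE 0.10, adjusted p = 3.7e-04) and the kinase Srpk3 at 0.51 (SE 0.09, adjusted p = 5.8e-04). Others on the list went the other way, such as Casq1 at 11.61 ± 0.17 in HSALR saline and 12.20 ± 0.19 in WT saline. Ampd1 was at 14.45 ± 0.11 and 14.82 ± 0.13 in the same groups (SD, n = 4 each). Xirp1 measured 9.40, 10.10, 9.88 and 9.90 under ASO 445236, 9.04, 10.30, 10.15 and 9.56 under ASO 190401, between 10.90 and 11.13 in HSALR saline, and 9.93, 10.01, 9.42 and 9.86 in WT saline. Like the 2 Mef2c probes, Xirp1 had all 4 HSALR saline arrays above the other 12. It fell below HSALR saline by 1.19 under ASO 445236 (SE 0.21, adjusted p = 7.5e-04) and by 1.25 under ASO 190401 (SE 0.21, adjusted p = 4.9e-04).

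The MEF2 target list as a whole had 2 of 25 higher and 2 lower under ASO 445236 against HSALR saline, beside 6.56% and 6.44% of all genes, and 1 higher and 5 lower under ASO 190401, beside 7.56% and 7.31%. When each array was left out the counts were 1 to 2 higher and 1 to 3 lower for ASO 445236, and 1 to 2 higher and 3 to 5 lower for ASO 190401. The calcium store protein Casq1 was 0.69 higher under ASO 445236 (SE 0.13, adjusted p = 0.001). The AMP deaminase Ampd1 was 0.31 higher under ASO 190401 (SE 0.07, adjusted p = 0.007).

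Of 24 tested partners and cofactors 5 were higher and 2 lower in HSALR saline against WT saline, beside 13.9% and 12.8% of all genes. The 2 lower became 0 without HSALR saline replicate 2 or 3 or WT saline replicate 4, and 1 without HSALR saline replicate 1 or WT saline replicate 1, 2 or 3. Tead4, a factor that binds muscle gene promoters, was below background on the 4 WT arrays. By the fit it was 1.56 higher in HSALR saline (SE 0.19, adjusted p = 5.7e-06). With the WT arrays raised to the lowest detected signal, Tead4 was 2.08-fold higher by group mean (measured means 6.43 and 4.87). It fell by 1.23 under ASO 445236 against HSALR saline (SE 0.19, adjusted p = 1.7e-04). Eya4, a transcriptional coactivator, was 0.97 higher in HSALR saline than in WT saline (SE 0.21, adjusted p = 0.002). Of 19 tested inhibitors of bHLH or MEF2 factors 1 was higher and 2 lower in HSALR saline against WT saline, no larger a share than the same 13.9% and 12.8% of all genes. The 1 higher, Hdac5, was lost without HSALR saline replicate 2, 3 or 4 or WT saline replicate 1, 2 or 4. Twist1, a bHLH protein that blocks Myod1, was at -0.65 (SE 0.18, adjusted p = 0.011). Hdac4, which represses MEF2 proteins, was 0.67 higher under ASO 190401 than in WT saline (SE 0.16, adjusted p = 0.0098) within their chip.

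Of the 16 tested satellite cell genes outside the set 4 were higher and 0 lower in HSALR saline against WT saline, beside 13.9% and 12.8% of all genes, with a median of -0.01. They included Ncam1 and Des, which are bHLH targets too, and the integrin Itgb1 at 0.80 (SE 0.20, adjusted p = 0.0051), whose other probe gave 0.09. The count of lower genes was 2 without WT saline replicate 1, and 1 without WT saline replicate 2 or HSALR saline replicate 1 or 4.

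Markers of other cells moved with the groups. In HSALR saline against WT saline 7 of 11 tested fibroblast markers and 5 of 6 adipocyte markers were lower and 0 higher, and 2 of 10 skeletal muscle markers were higher and 2 lower, beside 13.9% and 12.8% of all genes. The summed level of the fibroblast list ranged from 16180.3 to 19874.1 under ASO 445236, from 13760.8 to 15285.9 under ASO 190401, from 13299.5 to 15206.9 in HSALR saline and from 21193.6 to 23871 in WT saline. The skeletal muscle sum ranged from 286047 to 315454, from 290862 to 310415, from 289355 to 304504 and from 291931 to 320479 in the same groups. Myeloid markers were higher under ASO 445236 than in HSALR saline in 4 of 9 cases, beside 6.56% of all genes, with sums of 3646.88 to 5482.56 against 1070.49 to 2069.87, although Itgam, Itgax, Fcgr1 and Fcer1g were below background on every array.

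Endothelial sums ranged from 2868.01 to 6390.9 under ASO 445236 and from 3474.48 to 5717.62 under ASO 190401. They were 5141.76 to 6893.53 in HSALR saline and 4770.81 to 8665.64 in WT saline. Against WT saline 5 of 10 endothelial markers were lower and 0 higher under ASO 445236, beside 4.65% and 5.81% of all genes. Under ASO 190401 3 were lower and 0 higher, beside 5.12% and 4.74%. Nerve and Schwann cell sums, over 4 tested markers, ranged from 1005.88 to 1271.91 under ASO 445236 and from 817.79 to 1140.36 under ASO 190401. They were 887.487 to 1005.29 in HSALR saline and 1397.87 to 2218.47 in WT saline. In HSALR saline against WT saline 1 of the 4 was called lower and 0 higher, beside 12.8% and 13.9% of all genes. Of 10 lymphocyte markers on the array 0 passed the filter. The part of these cells in the values of Myf6, Mef2c and their targets was not tested.

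The genes most like each member over the 16 arrays, among tested probes of other genes, were found by Pearson correlation as a description, since arrays share groups and chips. Mef2c (ILMN_2732465) was closest to Cipc (0.93), Cdkl2 (0.93) and Mllt11 (0.92), and Myf6 to Sync (0.92), Plpp1 (0.91) and Arih1 (0.90). Myog was closest to Gnb5 (0.85), Bcap29 (0.84) and Jph2 (0.80), and Myod1 to Jtb (0.82), Snora65 (0.80) and Hectd2 (0.76). Mef2a was closest to Trpc4ap (0.83), Capn2 (0.80) and Coro6 (0.80), and Mef2d to Gpr149 (0.83), Stat5a (0.81) and Prkdc (0.81).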

How the data were processed

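Per the file headers, the authors' deposited non-normalized table gives an intensity and a detection p-value for each of 25697 probes on each of 16 arrays. On each array 6907 to 7499 intensities are below 0, so a background had been subtracted, by a method the labels and headers do not state. A second deposited table, the authors' processed matrix, has linear intensity values and served as an alternative; per the submitters' processing notes the tool affy was used, with no version. Of all cells 60 were not numbers, 0 of them in the 13 probes of the set.

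The background was modelled by normexp in limma 3.58.1 under R 4.3.3 (parameters from the detection p-values, offset 16), and the intensities were then quantile normalized and put on the log2 scale. One mean per group (12 residual degrees of freedom) and an intensity trend gave two-sided moderated tests, with Benjamini-Hochberg adjustment over 12364 probes in each of 6 comparisons, called under 0.05. The fit was tested on simulated data drawn independently for each array, without a chip effect or a normalization step. That test therefore does not bear on chip or normalization. GEO's platform annotation pairs 23978 probes with 1 gene and leaves 1719 unnamed here.

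The rule for named genes takes all members, up to 3 called genes with the smallest adjusted p per list and comparison, the 3 genes most correlated with each member, Acta1 and Pax3; the text gives a part of these, and other list genes (Chrna1, Chrnb1, Chrne, Tnnt3, Mef2b among them) were chosen after their values were seen. The members and lists were chosen with earlier results of these data known, so patterns already described for this series are no independent support. Each gene of a list is represented by its brightest tested probe, and lists were counted without a set test. Alternatives were no normexp, an offset of 50, median scaling, the authors' matrix, other filters on dim probes, 1 probe per gene, other variance models, array weights, chip position, fewer groups, 1 chip alone and leaving out each array. Leaving out together the array on each chip with the lowest mean correlation to its group (ASO 445236 replicate 1 and WT saline replicate 1) and the Mef2c probe ratio were added after seeing the data.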

Additional observations from a re-analysis of the deposited data

Results flagged for a closer look

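A sample was marked where its gap to the nearest array of its group passed the 95% critical value of Dixon's ratio of gap to range, which chance gives in about 1 group in 20. Of 52 pairs of probe and group 5 were marked, each with 4 arrays. Myog ILMN_2863674 was high in HSALR saline replicate 1, at a log2 level of 7.57, and Mef2d was high in the same array, at 6.41, the 1 HSALR saline array on which Mef2d was above background. Myf6 was low in ASO 445236 replicate 1, at 11.75, which among the 4 arrays of that group has the lowest mean correlation to the others. Mef2c ILMN_2887992 was high in HSALR saline replicate 2, at 11.95. Myf5 was low in ASO 445236 replicate 2, at 4.60, where it is below background and has no order.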

How the results depend on the processing

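Over the 11 tested probes and 6 comparisons, 845 of 875 values from alternatives other than leaving out 1 array stayed on their side of the threshold, 9 lost a call, 21 gained one and 0 called values changed sign. When each array was left out the counts were 512 of 528 unchanged, 8 lost, 8 gained and 0 of opposite sign; 29 and 54 uncalled values changed sign. The number of called probes for HSALR saline against WT saline (3) and for ASO 445236 against ASO 190401 (0) did not move by over 1.5 times. The 2 called for ASO 445236 against HSALR saline, and likewise the 2 for ASO 190401, became 0 with median scaling and 1 with 1 probe per gene, which tests 1 Mef2c probe. The 1 called for ASO 445236 against WT saline became 4 with median scaling, 2 with the stricter detection filter, with detection on all 16 arrays, with 1 probe per gene, with the robust variance model and with array weights, 0 in a fit of the 2 groups alone, and 0 to 2 when each array was left out. The 1 called for ASO 190401 against WT saline became 4 with median scaling, 3 with array weights, 2 with either stricter filter, the robust model or chip position, 0 without the intensity trend, and 0 to 3 when each array was left out. The probes gained there were those of Myf6 and Myog, with median scaling also Mef2c ILMN_2732465, and without ASO 190401 replicate 4 Mef2c ILMN_1214950, which was lower. The cause was not tested.

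Median scaling gave 1982 probes higher and 338 lower over the whole table for ASO 445236 against HSALR saline (753 and 743 by quantile normalization), 2556 and 401 for ASO 190401 against HSALR saline (882 and 834), 1812 and 233 for ASO 445236 against WT saline (652 and 550), and 2207 and 364 for ASO 190401 against WT saline (534 and 595). It moved the median of all probes to 0.16, 0.17, 0.14 and 0.17. In a fit of the 2 groups alone the calls against WT saline fell to 327 higher and 281 lower for ASO 445236 and to 290 and 412 for ASO 190401, and without ASO 445236 replicate 4 those between the oligos were 81 and 42, against 199 and 114. No paired analysis was possible because the labels carry no replicate numbers. The numbers used here were given to the arrays of each group in the order in which the series lists them. Myf5, Pax7, Mef2d, 2 Mef2a probes and the second Myog probe lie at or near background, where signal limits what can be seen.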
